A study of Mus musculus with 12 samples.

Results

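Livers that had lost p53 on a normal diet were compared directly with livers of wild-type mice on HFD (high-fat diet), across all genes counted. The comparison uses 6 of the 12 RNA libraries of the series. They are 3 p53 ko libraries on normal diet (ko_normal) and 3 p53 wt libraries on HFD (wt_HFD), chosen by genotype and diet as labelled. The 2 groups differ in both genotype and diet, so a difference between them cannot be assigned to either without the other 6 libraries, which are p53 wt on normal diet (wt_normal) and p53 ko on HFD (ko_HFD). All mice were C57BL/6, aged 12 weeks, and all RNA came from liver. The labels give neither the knockout allele, nor the cells it was confined to if any, nor the length and composition of the diet, nor the sex or feeding state of the mice. Whether each library is a different mouse is not labelled, and p-values here cover only library-to-library spread, which may be technical. The series title concerns Sqle, the squalene epoxidase of cholesterol synthesis, as a gene regulated by p53.

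p53, encoded by Trp53, is a transcription factor that responds to DNA damage and other stress by switching on genes of cell cycle arrest, DNA repair and cell death, among them Cdkn1a. In liver it has also been tied to lipid and sterol metabolism. A high-fat diet loads hepatocytes with lipid and is commonly followed by changes in sterol synthesis, drug metabolism, amino acid breakdown and inflammation.

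Total counts were 17186008 to 20492567 in ko_normal and 16751342 to 17980836 in wt_HFD, and 15465187 to 20492567 over the 12 libraries. Levels are given as CPM, read counts scaled to a common library size, in the order of replicates 1, 2 and 3. Trp53 (ENSMUSG00000059552, chromosome 11, 69580359 to 69591873) was measured at 1.62, 0.399 and 0.273 CPM in ko_normal and at 8.54, 10.7 and 24.5 CPM in wt_HFD. It was at 16.3, 14.5 and 15.6 CPM in wt_normal and at 0.701, 0.748 and 0.752 CPM in ko_HFD. Each ko library lay below each wt library, as labelled. The log2 difference, here always ko_normal minus wt_HFD, was -4.27 for Trp53 (SE 0.555, edgeR adjusted p = 0.00512). Library ko_normal 1 held 14.6% of its counts in mitochondrially encoded genes, against 4.58% to 6.51% in the other 5 compared libraries. Among the compared libraries, wt_HFD 3 stood apart in immediate early genes and in an index of clock genes. Library wt_HFD 2 stood apart in Acta2 and Krt19, and both are described with their gene lists. Library wt_normal 2, which enters the shared spread, had skeletal muscle markers summing to 10200 CPM, against at most 16.5 CPM elsewhere, and 91 genes were called without it. Hepatocyte markers were high in all 6 libraries, with a summed level of 84900 to 91500 CPM in ko_normal and 63900 to 73000 CPM in wt_HFD over 12 genes.

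Of 14433 genes tested, 110 (0.762%) were called at an adjusted p under 0.05 by edgeR's quasi-likelihood test. Of these, 79 (0.547%) were higher in ko_normal and 31 (0.215%) were lower. The genes that rose included enzymes of drug metabolism, such as Cyp3a11 and Gsta2, and of amino acid breakdown. Among the genes that fell were the stress factor Atf3, the protease inhibitor Serpine2, the p53 target Cdkn1a and Trp53 itself. The median size of a called log2 difference was 1.52, with 34 genes over 4-fold and 19 under 2-fold. Without adjustment 2574 genes had p under 0.05. The CPM of the 2 groups did not overlap for any of the 110 called genes, as for 3041 of all tested genes (21.1%). For 7348 genes (50.9%) the 95% interval of the difference lay within -1 and 1 on the log2 scale, so a 2-fold difference lay outside it. The plot of difference against level places the called genes among all those tested.

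**Figure D1:**
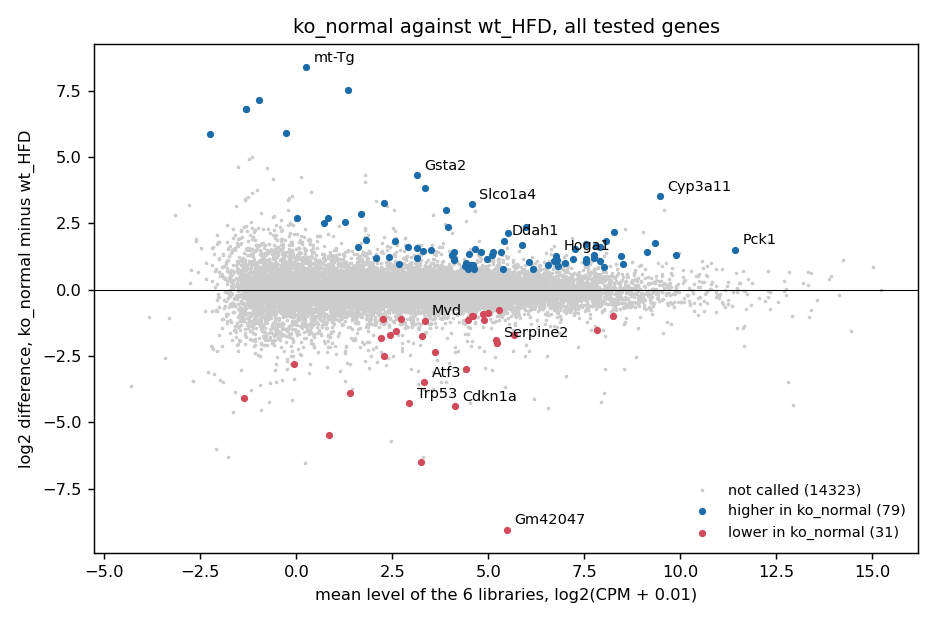
Each point is 1 of 14433 tested genes, with its mean level in the 6 libraries, as log2(CPM + 0.01), on the horizontal axis and the log2 difference, ko_normal minus wt_HFD, on the vertical axis. The 79 genes called higher in ko_normal are blue and the 31 called lower are red. Fitted differences of genes with 0 counts in a group, such as mt-Tg, depend on edgeR's prior count and are no measured fold.

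The number of calls depended on the test and on single libraries, while the sign of the 110 differences did not change in any of 23 alternatives that tested them (107 or 108 of the 110 were tested in 3 of these). DESeq2 called 729 genes and voom of limma 423, and these held 110 and 104 of the 110. A fit of the 6 compared libraries alone called 35 genes, 25 of them shared. The count was 26 without ko_normal 1, 23 without ko_normal 3, 28 without wt_HFD 2, 64 without wt_HFD 3, 72 without wt_normal 1 and 71 without wt_normal 3. The share of calls that were higher in ko_normal was 71.8% in the main test and 57.1% in the 6 libraries alone, 54.2% with DESeq2, 53% with voom and 55.6% without a filter on low counts. Calls of 11 genes were kept in all 23 alternatives, namely Akr1d1, Cyp3a11, Cyp3a59, Ddah1, Gm42031, Gsta2, Hoga1, Serpine2, Slco1a4, Snhg11 and Zfp385b. Of these, Ddah1, Gm42031 and Zfp385b were chosen after their values were seen.

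Of the 38 called genes described by rule, 25 lost their call in the fit of the 6 compared libraries, at edgeR adjusted p of 0.0527 to 0.138. They were Trp53 (0.0527), Cdkn1a, Atf3, Dusp8, Sowahb, Egln3, Pdk1, Mvd, Npc1, Scarb1, Abcc3, Pck1, Gls2, Hal, Uroc1, Etnppl, Cyp2a5, Cyp2c54, Cyp2f2, Gstm1, Gsta4, Slc13a2, Lipg, mt-Tg and mt-Tr. With library totals in place of TMM scaling, Mvd (0.0646) and Egln3 (0.0519) were not called. With voom, Slc13a2 (0.122) and Lipg (0.0561) were not called. With the clock gene index as covariate, Slc13a2, Dusp8, Sowahb, Egln3, Mvd, Gsta4 and Pdk1 were not called, at adjusted p of 0.0512 to 0.0706. Each of these genes kept its sign.

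Cytochrome P450 enzymes oxidise drugs, steroids and fatty acids in the hepatocyte, and glutathione transferases and other conjugating enzymes make the products soluble. Cyp3a11 (ENSMUSG00000056035, chromosome 5, 145854426 to 145879964, minus strand), the main drug-metabolising CYP3A enzyme of mouse liver, was measured at 1520, 1180 and 1230 CPM in ko_normal and at 77.8, 162 and 104 CPM in wt_HFD. Every ko_normal library lay above every wt_HFD library by more than any spread within a group. Its log2 difference was 3.52 (SE 0.308, edgeR adjusted p = 0.000703), an 11.4-fold difference and the smallest adjusted p of all tested genes. The level was 1500, 1270 and 1650 CPM in wt_normal and 465, 256 and 366 CPM in ko_HFD. The ko_normal and wt_normal libraries overlapped, and the ko_HFD libraries lay between wt_HFD and both normal-diet groups. Cyp3a59, a neighbour of the same family, was measured at 14.1, 21.9 and 21 CPM in ko_normal and at 0.842, 2.58 and 0.623 CPM in wt_HFD (log2 difference 3.83, SE 0.543, edgeR adjusted p = 0.00935). Reads of Cyp3a11 and Cyp3a59 may be split between near-identical copies, as may those of Cyp2a5, Cyp2c54, Gsta2 and Gstm1, so the values of single members are uncertain.

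The stretch of Cyp3a11 shown here is the part of its start region that holds 2 short motif matches side by side, and the Atf3 stretch, for the stress factor that fell, holds a match to 1 of them. Both come from RefSeq promoter windows on GRCm38.p6, on the minus strand, at chr5:145879940-145879969 and chr1:191183341-191183583. Capitals mark CAAAGTCCA, a form of the element bound by HNF4, and TGATGNAA, the element bound by C/EBP and ATF pairs, or its reverse complement.
Cyp3a11: gagtacCAAAGTCCAgTGATGCAAaggtga
Atf3: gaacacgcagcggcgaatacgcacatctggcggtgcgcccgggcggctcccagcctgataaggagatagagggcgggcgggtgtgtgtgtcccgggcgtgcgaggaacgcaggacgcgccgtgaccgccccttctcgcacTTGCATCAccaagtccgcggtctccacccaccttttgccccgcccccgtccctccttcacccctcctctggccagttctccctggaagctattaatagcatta
In Cyp3a11 the matches begin 109 and 99 bases before the RefSeq start, which GENCODE M21 places inside a 5′ UTR. The Atf3 match begins 110 bases before the RefSeq start, in an intron of a longer GENCODE transcript. Over the 250 bases before the start, on both strands, TGATGNAA was found in 3.91% of 27025 genes, in 2 of the 50 risen genes with a window and in 1 of the 24 fallen ones. CAAAGTCCA was found in 0.451% of all genes and, among the called genes, in Cyp3a11 alone. The sterol regulatory element TCACNCCAC was found in 1.22% of all genes, in 3 risen and 0 fallen genes, and the antioxidant response element TGACNNNGC in 11.5%, in 6 and 2. The motifs were chosen after the values were seen, and a match is a description of letters, not of binding.

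Of 19 tested genes of cytochrome P450 and xenobiotic receptors, 5 rose and none fell, beside 0.547% called higher and 0.215% lower over all tested genes. The list's median log2 difference was 0.52, beside 0.00 for all tested genes. Cyp2a5, which hydroxylates coumarin and nicotine, was measured at 682, 377 and 446 CPM in ko_normal and at 157, 107 and 69.9 CPM in wt_HFD (log2 difference 2.17, SE 0.353, edgeR adjusted p = 0.0192). Cyp2c54, of the CYP2C family that oxidises drugs and fatty acids, had a log2 difference of 1.72 (SE 0.313, adjusted p = 0.0278), and Cyp2f2, an enzyme of periportal hepatocytes, had 1.44 (SE 0.268, adjusted p = 0.0302). The list's median was 0.19 without ko_normal 1 and 1.12 without wt_HFD 2. Its count of 5 was 2 without ko_normal 3 or wt_HFD 3, and 3 without ko_normal 1, wt_HFD 1 or wt_HFD 2. The receptors that regulate these enzymes were not called: the log2 difference was 0.02 for Nr1i2 (SE 0.35), which encodes PXR, 0.03 for Nr1i3 (SE 0.223), which encodes CAR, and -0.41 for Ahr (SE 0.289). All 3 had overlapping groups. Cyp2c37 (1.60, adjusted p = 0.0505) and Cyp3a25 (2.30, adjusted p = 0.0685) did not pass the test although their groups did not overlap.

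Conjugation enzymes showed 3 rises and no fall among 21 tested, with a median of 0.65, and 20 of the 21 differences were positive. Over all tested genes 0.547% were called higher and 0.215% lower, and 49.5% of differences were positive. Gsta2, an alpha class glutathione transferase, was measured at 29.7, 11.2 and 9.7 CPM in ko_normal and at 0.481, 1.42 and 0.623 CPM in wt_HFD. The lowest ko_normal library was well above the highest wt_HFD library, and the log2 difference was 4.33 (SE 0.483, edgeR adjusted p = 0.00272). It was at 17.1, 20.3 and 19.1 CPM in wt_normal and at 5.02, 5.87 and 4.33 CPM in ko_HFD, so that ko_HFD again lay between wt_HFD and both normal-diet groups. Gstm1, a mu class transferase, had a log2 difference of 1.77 (SE 0.28, adjusted p = 0.0183), and Gsta4, which detoxifies products of lipid peroxidation, had 1.35 (SE 0.263, adjusted p = 0.0394). Members that did not pass included Gstm2 (1.30), Gstm3 (1.67) and the glucuronosyltransferase Ugt1a9 (3.70), all with non-overlapping groups. The count of 3 was 1 without ko_normal 1.

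Among these enzymes the calls of Cyp3a11, Cyp3a59 and Gsta2 were kept in all 12 fits that left out 1 library. The call of Gstm1 ended without ko_normal 1 or wt_HFD 2 (edgeR adjusted p at most 0.0744), and that of Cyp2a5 without ko_normal 1 or 3 or wt_HFD 2 or 3 (at most 0.075). Cyp2c54 lost its call without ko_normal 1 or 3 or any wt_HFD library (at most 0.0813). Cyp2f2 lost it without 7 of the 12 libraries, namely ko_normal 2 and 3, each wt_HFD library, and wt_normal 1 and 3 (at most 0.132). Gsta4 kept its call in 3 of the 12 fits, without wt_HFD 2, ko_HFD 1 or ko_HFD 3 (at most 0.12 in the others).

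**Figure D2:**
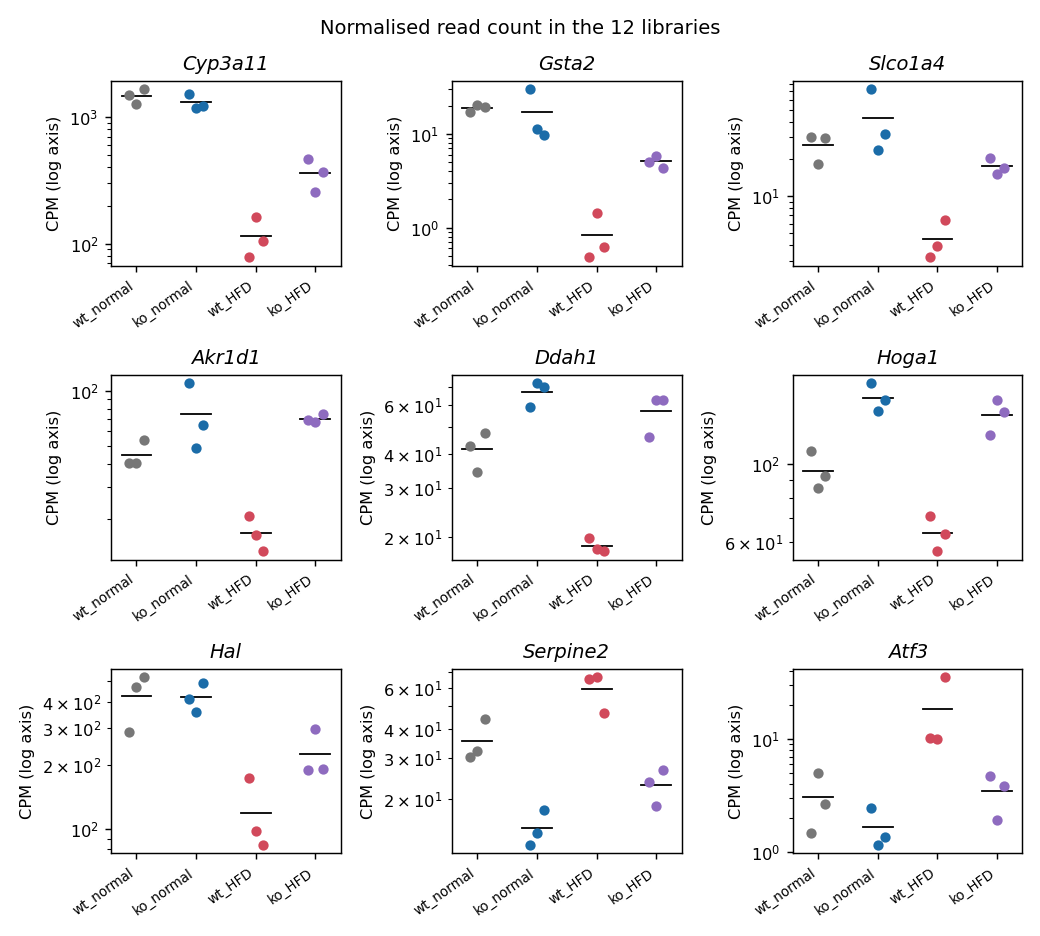
Normalised read count (CPM, log axis) of 9 called genes in each of the 12 libraries. Points are libraries, bars are group means, and in every panel the 3 ko_normal points lie apart from the 3 wt_HFD points. Cyp3a11 was at 1180 to 1520 CPM in ko_normal and 77.8 to 162 CPM in wt_HFD.

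Amino acid breakdown in the liver yields glucose precursors and ammonia, which the urea cycle clears. Of 22 tested genes of the urea cycle and amino acid breakdown, 6 rose and none fell, the median log2 difference was 0.81, and 12 were higher without overlap against 1 lower. Across all genes 0.547% were called higher and 0.215% lower, and 10.6% were higher and 10.5% lower without overlap. Hal, histidine ammonia-lyase, which takes the first step of histidine breakdown, was measured at 410, 358 and 491 CPM in ko_normal and at 174, 97.6 and 83.8 CPM in wt_HFD (log2 difference 1.83, SE 0.315, edgeR adjusted p = 0.0238). Uroc1, urocanase, which takes the next step, was at 521, 445 and 509 CPM against 269, 153 and 194 CPM (1.26, SE 0.208, edgeR adjusted p = 0.02). Amdhd1, which follows Uroc1 in the pathway and was chosen after its values were seen, was at 251, 194 and 229 CPM against 101, 69.1 and 64.7 CPM (1.52, SE 0.22, edgeR adjusted p = 0.0104). The first 3 enzymes of histidine breakdown were thus each higher in every ko_normal library than in any wt_HFD library.

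Gls2, liver glutaminase and a known p53 target in other settings, was at 410, 276 and 338 CPM in ko_normal and at 174, 73.6 and 76.9 CPM in wt_HFD (log2 difference 1.66, SE 0.312, edgeR adjusted p = 0.0322). It was higher in the p53 ko libraries of this comparison, and was at 336, 316 and 346 CPM in wt_normal and at 163, 232 and 256 CPM in ko_HFD. Etnppl, which breaks down phosphoethanolamine, had a log2 difference of 2.37 (SE 0.383, adjusted p = 0.019). Hoga1, the last enzyme of hydroxyproline breakdown, was at 170, 142 and 152 CPM in ko_normal and at 70.9, 56.3 and 62.9 CPM in wt_HFD (1.29, SE 0.166, edgeR adjusted p = 0.00512). Arg1, the arginase that releases urea, had 1.32 (SE 0.244, adjusted p = 0.0288) and was chosen after its values were seen. The other urea cycle enzymes were positive and did not pass, with log2 differences of 1.07 for Otc (adjusted p = 0.0539), 1.10 for Ass1 (0.0772), 0.99 for Asl (0.17) and 0.89 for Cps1 (0.17). Pck1, the gate of gluconeogenesis, rose as well, at 5100, 2930 and 4240 CPM against 1710, 947 and 1630 CPM (1.51, SE 0.303, edgeR adjusted p = 0.0432). Ddah1, which degrades methylarginines that inhibit nitric oxide synthesis, was at 59.3, 72.1 and 69.6 CPM in ko_normal and at 19.8, 18 and 17.7 CPM in wt_HFD, with a log2 difference of 1.86 (SE 0.177, edgeR adjusted p = 0.000973).

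The calls of Hoga1 and Ddah1 were kept in all 12 fits that left out 1 library. Hal and Uroc1 lost theirs without ko_normal 1 or 3 or wt_HFD 2 or 3 (edgeR adjusted p at most 0.103 and 0.09), Amdhd1 without wt_HFD 2 (0.0598), and Etnppl without ko_normal 1 or wt_HFD 2 or 3 (at most 0.075). Arg1 lost its call without any 1 of the 6 compared libraries (at most 0.117). Gls2 lost it without ko_normal 1 or 3, wt_HFD 2 or 3, wt_normal 1 or 3, or ko_HFD 2 (at most 0.117), and Pck1 without those or wt_HFD 1 (at most 0.139). The list's median stayed between 0.66 and 0.82 in these fits, while its count of 6 was 1 without ko_normal 1, wt_HFD 2 or wt_HFD 3, and 2 without ko_normal 3.

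Cholesterol is made from acetyl-CoA through mevalonate and squalene, and its synthesis genes are driven together by the transcription factor SREBP2. In the synthesis list 1 of 20 tested genes was called, Mvd, and it fell. Mvd, mevalonate diphosphate decarboxylase, was measured at 6.61, 6.69 and 5.56 CPM in ko_normal and at 12.1, 12.7 and 17.3 CPM in wt_HFD (log2 difference -1.16, SE 0.241, edgeR adjusted p = 0.0478). Every ko_normal library lay below every wt_HFD library. Msmo1 and Cyp51, which remove methyl groups from lanosterol, missed the threshold, with log2 differences of -0.88 (SE 0.189, adjusted p = 0.0512) and -0.91 (SE 0.2, adjusted p = 0.0557). Both were called with DESeq2 (0.00215 and 0.00341), with voom (0.035 and 0.023) and with no filter on low counts (0.0221 and 0.0214), Msmo1 also at a minimum of 1 CPM (0.048) and Cyp51 without ko_HFD 1 (0.0157). Sqle was at 5.68, 9.48 and 9.92 CPM in ko_normal and at 11.5, 10.9 and 14.3 CPM in wt_HFD, 4.31, 5.24 and 4.55 CPM in wt_normal, and 34.2, 15.1 and 27.5 CPM in ko_HFD. Its groups did not overlap in this comparison, and the difference of -0.55 (SE 0.289, 95% interval -1.18 to 0.08, edgeR adjusted p = 0.343) did not pass. The interval excludes a level of Sqle that is 2-fold higher in ko_normal than in wt_HFD, but not one that is 2-fold lower. Of the 20 genes, 13 were negative, 6 were lower without overlap and 1 higher, and the median was -0.21. Over all genes 0.547% were called higher and 0.215% lower, and 10.5% were lower and 10.6% higher without overlap. The call of Mvd was kept without wt_normal 2 or ko_HFD 3 alone, and reached an adjusted p of 0.174 when others were left out (each of ko_normal, wt_HFD, wt_normal 1 and 3, and ko_HFD 1 and 2).

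Npc1, which moves cholesterol out of lysosomes, was at 95, 78.2 and 97.1 CPM in ko_normal and at 49.9, 34.8 and 46.2 CPM in wt_HFD (log2 difference 1.05, SE 0.186, edgeR adjusted p = 0.0248). It was at 44.8, 45.4 and 51.3 CPM in wt_normal, close to wt_HFD, and at 43.9, 64.8 and 53.8 CPM in ko_HFD. Against wt_normal, Npc1 in ko_normal differed by 0.933 (edgeR adjusted p = 0.0606) and was not called. Scarb1, the HDL receptor, was at 153, 143 and 140 CPM against 77.1, 71.4 and 87.2 CPM (0.89, SE 0.152, edgeR adjusted p = 0.0238). Abcg5 and Abcg8, the paired exporters of sterols into bile, had 1.04 (adjusted p = 0.109) and 0.69 (0.0976) and did not pass, with non-overlapping groups. Both passed with DESeq2 (0.0255 each), Abcg5 with no filter (0.0325) and Abcg8 with voom (0.0387). Npc1 was the 1 called gene among 17 of sterol sensing and uptake, of which 10 were positive and 7 negative. Among all tested genes, 0.547% were called higher and 0.215% lower, and 49.5% of differences were positive. The list's median was 0.13, and -0.01 without ko_normal 2. Srebf2, which encodes SREBP2, was not called (0.07, SE 0.16). Npc1 lost its call without ko_normal 1 or 3 or wt_HFD 2 or 3 (adjusted p at most 0.114), and Scarb1 without ko_normal 1 or 3 or wt_HFD 1 or 2 (at most 0.0917).

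Bile acids are made from cholesterol and carried in and out of the hepatocyte by dedicated transporters. Of 17 tested genes of this list, 3 rose and none fell, with a median of 0.36. Over all tested genes 0.547% were called higher and 0.215% lower. Slco1a4, an uptake transporter of bile acids and drugs, was measured at 72.7, 23.5 and 31.9 CPM in ko_normal and at 3.19, 3.94 and 6.46 CPM in wt_HFD (log2 difference 3.23, SE 0.416, edgeR adjusted p = 0.00512). Akr1d1, the reductase that shapes the steroid ring of bile acids, was at 110, 49 and 65.3 CPM against 20.6, 16.3 and 13.3 CPM (2.16, SE 0.274, edgeR adjusted p = 0.00512). Both groups were well apart for each gene, and ko_normal 1 was the highest library in both. Abcc3, which exports bile acids to blood, had 1.03 (SE 0.19, adjusted p = 0.0288). Cyp7a1, the first enzyme of the main pathway, ranged from 8.29 to 35.6 CPM in ko_normal and from 10.8 to 28.2 CPM in wt_HFD and was not called (0.45, SE 0.664). Slco1a4 and Akr1d1 were called in all 12 fits that left out 1 library. The call of Abcc3 ended without 7 of them, namely each ko_normal library, wt_HFD 1 and 2, and wt_normal 1 and 3 (adjusted p at most 0.0917).

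Several transcripts outside these lists also rose by over 4-fold. Snhg11, a long noncoding host of small nucleolar RNAs, was at 45.5, 13.8 and 19.9 CPM in ko_normal and at 3.07, 4 and 2.89 CPM in wt_HFD (log2 difference 2.99, SE 0.409, edgeR adjusted p = 0.00754). Clec2h, a C-type lectin gene, was at 14.4, 5.79 and 6.49 CPM against 1.32, 0.774 and 0.623 CPM (3.28, SE 0.525, edgeR adjusted p = 0.0183). The dicarboxylate transporter Slc13a2 had 2.56 (SE 0.501, adjusted p = 0.0391), and Lipg, endothelial lipase, had 2.53 (SE 0.519, adjusted p = 0.0447). Snhg11 kept its call in all 12 fits that left out 1 library, and Clec2h lost it without ko_normal 1, wt_HFD 2 or wt_HFD 3 (at most 0.0744). Slc13a2 kept it in 4 fits, those without wt_normal 2 or 3 or ko_HFD 1 or 2, and Lipg in 2, those without ko_HFD 1 or 3, with adjusted p of at most 0.137 and 0.141 in the others.

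The genes that fell, and so were higher in wt_HFD, included stress and secreted factors. Atf3 (chromosome 1, 191170296 to 191218039, minus strand), a transcription factor induced by many stresses, was measured at 2.43, 1.15 and 1.36 CPM in ko_normal and at 10.2, 9.94 and 35.4 CPM in wt_HFD (log2 difference -3.49, SE 0.609, edgeR adjusted p = 0.0238). The highest ko_normal library lay below the lowest wt_HFD library, and wt_HFD 3 was the highest. Mthfd2, a mitochondrial folate enzyme induced by the amino acid stress response, was at 1.62, 1.15 and 1.64 CPM against 9.14, 5.55 and 10.3 CPM (-2.50, SE 0.485, edgeR adjusted p = 0.0382). Extl1, a glycosyltransferase of heparan sulfate synthesis, was at 5.16, 2.8 and 6.16 CPM against 59.2, 17.9 and 35.8 CPM (-3.00, SE 0.524, edgeR adjusted p = 0.0238). Nat8f5, of a family of N-acetyltransferases, was at 5.97, 3.29 and 2.94 CPM against 28.4, 15 and 17.8 CPM (-2.33, SE 0.451, edgeR adjusted p = 0.0382). All 4 had non-overlapping groups, as had all 110 called genes and as the rule that picked these 4 requires. Dusp8, a phosphatase of MAP kinases, had -3.90 (SE 0.771, adjusted p = 0.0408), with 0.29, 0.25 and 0.436 CPM in ko_normal.

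Fgf21, the hepatokine of fasting and nutrient stress, was at 1.85, 8.64 and 13.6 CPM in ko_normal and at 338, 11 and 66.5 CPM in wt_HFD, so the groups overlapped and its difference of -4.10 (SE 1.09, edgeR adjusted p = 0.0927) did not pass, though it did with DESeq2 (0.0104) and with no filter (0.00233). Gdf15, another secreted stress factor, had -2.30 (SE 0.644, adjusted p = 0.105), and every ko_normal library lay below every wt_HFD library. Enho, which encodes the secreted peptide adropin, was at 17, 31.1 and 23.3 CPM against 86.2, 76 and 69.6 CPM (-1.70, SE 0.297, edgeR adjusted p = 0.0238). It was the 1 hepatokine called among 15 tested, with a list median of -0.56. For this and the next 2 lists, the shares called over all tested genes were 0.547% higher and 0.215% lower. The median difference of all tested genes was -0.005. Of 24 genes of the ER stress response 1 fell, which was Atf3, and the median was -0.39, or -0.24 without wt_HFD 3. The chaperone Hspa5 (-0.65, SE 0.282) and the transcription factor Ddit3 (-1.50, SE 0.557) had overlapping groups. Oxygen sensing genes split: Egln3, a prolyl hydroxylase that marks HIF for degradation, fell (-1.74, SE 0.346, edgeR adjusted p = 0.0428), Pdk1, which restrains pyruvate oxidation, rose (0.77, SE 0.153, edgeR adjusted p = 0.042), and the median of the 14 tested was 0.03, or -0.13 without wt_HFD 1 and 0.28 without wt_HFD 3.

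Among these genes, Atf3 lost its call without any ko_normal library or wt_HFD 3 (adjusted p at most 0.123), Extl1 without any ko_normal library or wt_HFD 1 (at most 0.0922), and Enho without ko_normal 1 or 3 or wt_HFD 1 or 2 (at most 0.114). Mthfd2 and Nat8f5 lost theirs without any 1 of the 6 compared libraries or wt_normal 1, and Mthfd2 also without wt_normal 3 and Nat8f5 without ko_HFD 3 (at most 0.139 and 0.151). Dusp8 lost its call without any ko_normal library, wt_HFD 2 or 3, wt_normal 1 or 3, or ko_HFD 3 (at most 0.154). Egln3 kept it in the fits without ko_normal 2, wt_normal 2 or 3, or ko_HFD 1 (at most 0.15 in the others), and Pdk1 in that without ko_HFD 1 (at most 0.162).

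Immediate early genes rise within minutes of a stimulus or of tissue handling. All 16 members tested were negative, with a median log2 difference of -1.27, and 1 member was called, again Atf3. By comparison, 49.5% of all tested differences were positive and 0.215% of tested genes were called lower. Without overlap, 2 of the 16 were lower, beside 10.5% of all tested genes. Egr1 was at 43.2, 16.2 and 13.7 CPM in ko_normal and at 18.9, 34.3 and 648 CPM in wt_HFD, and Fos was at 8.69, 2 and 2.78 CPM against 1.26, 7.03 and 103 CPM. In both genes 1 library, wt_HFD 3, was far above the others, and the groups overlapped. The summed level of the list was 302 to 670 CPM in ko_normal, 358 and 497 CPM in wt_HFD 1 and 2, and 2510 CPM in wt_HFD 3. Without wt_HFD 3 the median was -0.18 and the count of called members was 0, as it was without any ko_normal library. Without wt_HFD 1 it was 3. Atf3 and Dusp8 were also highest in wt_HFD 3, and both calls ended without it.

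Of 25 tested p53 targets, 1 fell and none rose, 18 were negative, 8 were lower and 2 higher without overlap, and the median was -0.47. Over all genes 0.762% were called, and 10.5% were lower and 10.6% higher without overlap. Gls2, named above as a p53 target in other settings, is not among the 25. It rose in this comparison (1.66, edgeR adjusted p = 0.0322). Cdkn1a, the cell cycle inhibitor p21, was measured at 0.811, 3.05 and 0.872 CPM in ko_normal and at 10, 13.7 and 76.6 CPM in wt_HFD (log2 difference -4.38, SE 0.898, edgeR adjusted p = 0.0457). The ko_HFD libraries were at 1.23, 2.48 and 4.14 CPM and the wt_normal libraries at 31.9, 33.3 and 115 CPM, so both ko groups lay below both wt groups. Gadd45a, a growth arrest factor, was at 8.11, 7.34 and 5.12 CPM in ko_normal and at 50.9, 81.4 and 28.1 CPM in wt_HFD (-2.96, SE 0.628, edgeR adjusted p = 0.0505). The groups did not overlap, and Gadd45a was called in the fit of the 6 compared libraries (0.046), with the clock index (0.015), with voom (0.00934), with DESeq2 (0.00222), at a minimum of 1 CPM (0.0493), with no filter (0.000382), and without wt_normal 2, ko_HFD 1 or ko_HFD 2 (0.0256 at the lowest). Gadd45a was at 2.77, 6.76 and 1.84 CPM in wt_normal and at 52.6, 9.21 and 18.2 CPM in ko_HFD. Aen, a nuclease of p53-driven cell death, was at 3.13, 5.69 and 6.11 CPM against 10.3, 9.87 and 13.9 CPM (-1.19, SE 0.279, edgeR adjusted p = 0.0697, called with DESeq2 at 0.00403, voom at 0.0484 and no filter at 0.0248). Aen was at 12.5, 14.7 and 10.1 CPM in wt_normal and at 7.65, 4.84 and 6.21 CPM in ko_HFD. Other targets showed small differences, with -0.18 for Mdm2 (SE 0.156), which degrades p53, and -0.47 for Bax (SE 0.201), and Bbc3, which encodes PUMA, had 1.15 (SE 0.342, adjusted p = 0.12). Without wt_HFD 1 the list held 2 called genes. The call of Cdkn1a was kept without wt_HFD 1 or wt_normal 3 and ended in the other 10 fits that left out 1 library (adjusted p at most 0.175).

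Serpine2 (chromosome 1, 79794197 to 79861180, minus strand), protease nexin-1, an inhibitor of thrombin and plasminogen activators, was at 12.7, 14.3 and 17.9 CPM in ko_normal and at 65.3, 66.9 and 46.7 CPM in wt_HFD. The log2 difference was -1.99 (SE 0.219, edgeR adjusted p = 0.00272), and its call was kept in every alternative. The level was 30.3, 32.2 and 44.1 CPM in wt_normal and 23.8, 18.7 and 26.6 CPM in ko_HFD, between the compared groups. The 2 differences from the shared wt_normal libraries were -1.25 for ko_normal (SE 0.215, edgeR adjusted p = 0.0449) and 0.75 for wt_HFD (SE 0.211, adjusted p = 0.115).

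Some transcripts were near 0 in 1 genotype on both diets. They were chosen after their values were seen, except mt-Tg and mt-Tr. Gm42047, a predicted gene on chromosome 8, was at 0.174, 0.2 and 0.109 CPM in ko_normal and at 29.5, 156 and 81.1 CPM in wt_HFD (log2 difference -9.04, SE 1.11, edgeR adjusted p = 0.00512), and at 0.117 to 0.633 CPM in ko_HFD and 8.53 to 95.7 CPM in wt_normal. Gm42031, also on chromosome 8, was at 0.348, 0.0998 and 0.164 CPM against 9.74, 30.4 and 16.2 CPM (-6.51, SE 0.838, edgeR adjusted p = 0.00512). In the other direction, Gm47917 on chromosome 10 had 271 counts over the 3 ko_normal libraries and 1 in wt_HFD, a ratio of 242 (exact 95% interval 43.1 to 9610, counting error only). The mitochondrial glycine tRNA gene mt-Tg had 128 counts against 0, at least 38.2-fold higher when wt_HFD is set to a floor of 3 counts over the group. The arginine tRNA gene mt-Tr had 87 counts against 1, a ratio of 77.8 (interval 13.6 to 3110). Both tRNA genes were also detected in each ko_HFD library, at 1.5 to 4.49 CPM. Reads of tRNA genes and predicted models may come from near-identical or overlapping genes, which these counts cannot tell apart. The interferon-inducible gene Ifi208 had 45 counts against 0, at least 13.4-fold higher, and its call ended without any 1 of the 12 libraries (edgeR adjusted p at most 0.139).

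The methyltransferase gene Vcpkmt was at 3.24, 5.59 and 4.96 CPM in ko_normal, 1.68, 1.03 and 1.76 CPM in wt_HFD, 1.23, 0.809 and 1.17 CPM in wt_normal and 4.15, 4.2 and 5.2 CPM in ko_HFD (log2 difference 1.62, SE 0.322, edgeR adjusted p = 0.042). The apolipoprotein L gene Apol9b was at 271, 315 and 327 CPM in ko_normal, 159, 87.4 and 122 CPM in wt_HFD, 113, 93.9 and 88.6 CPM in wt_normal and 257, 337 and 317 CPM in ko_HFD (1.31, SE 0.218, edgeR adjusted p = 0.0207). For both genes, chosen after their values were seen, the 6 ko libraries lay above the 6 wt libraries. Within 10 Mb of Trp53, 4 of 295 tested genes were called (1.36%), against 0.762% of all genes. Trp53 is 1 of the 4, and without it the count was 3 of 294 (1.02%). Apol9b lost its call without ko_normal 3, wt_HFD 2 or wt_HFD 3 (adjusted p at most 0.09), and Vcpkmt kept it in the fit without wt_normal 2 alone (at most 0.139 in the others). The calls of Gm42047, Gm42031 and Gm47917 were kept in all 12 such fits, that of mt-Tg ended without ko_normal 1 or 3 or wt_HFD 2 (at most 0.0813), and that of mt-Tr without ko_normal 1 or wt_HFD 2 or 3 (at most 0.0822).

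Acute phase proteins are secreted by hepatocytes in inflammation. All 24 tested genes of the acute phase response had a negative difference, with a median of -1.40, and none was called by edgeR over all genes. For 17 of the 24 every ko_normal library lay below every wt_HFD library, against 10.5% of all genes. Saa1, serum amyloid A, was at 55.2, 2520 and 963 CPM in ko_normal and between 12300 and 13600 CPM in wt_HFD (log2 difference -3.46, SE 1.54, adjusted p = 0.266). Hp, haptoglobin, was between 6180 and 14800 CPM in ko_normal and between 28200 and 36600 CPM in wt_HFD (-1.57, SE 0.42, adjusted p = 0.0963). Saa4, a constitutive form, was at 283, 409 and 395 CPM against 1260, 1180 and 945 CPM (-1.64, SE 0.355, adjusted p = 0.0522). The wt_HFD libraries were close together and high, while ko_normal 1 was the lowest for Saa1 and Hp. The summed level of the list was 19300, 47000 and 41400 CPM in ko_normal and 107000 to 116000 CPM in wt_HFD. It was 125000 CPM in ko_HFD 1 but 29300 and 26100 CPM in ko_HFD 2 and 3, and 30800 to 49100 CPM in wt_normal. The 4 groups shared 1 estimate of the spread, and 6 members were called without ko_HFD 1, 1 without ko_HFD 3 and 2 in the fit of the 6 compared libraries alone. Saa1, Hp and Saa4 were chosen after their values were seen. The median of the list stayed between -1.68 (without ko_normal 2) and -1.12 (without ko_normal 1).

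**Figure D3:**
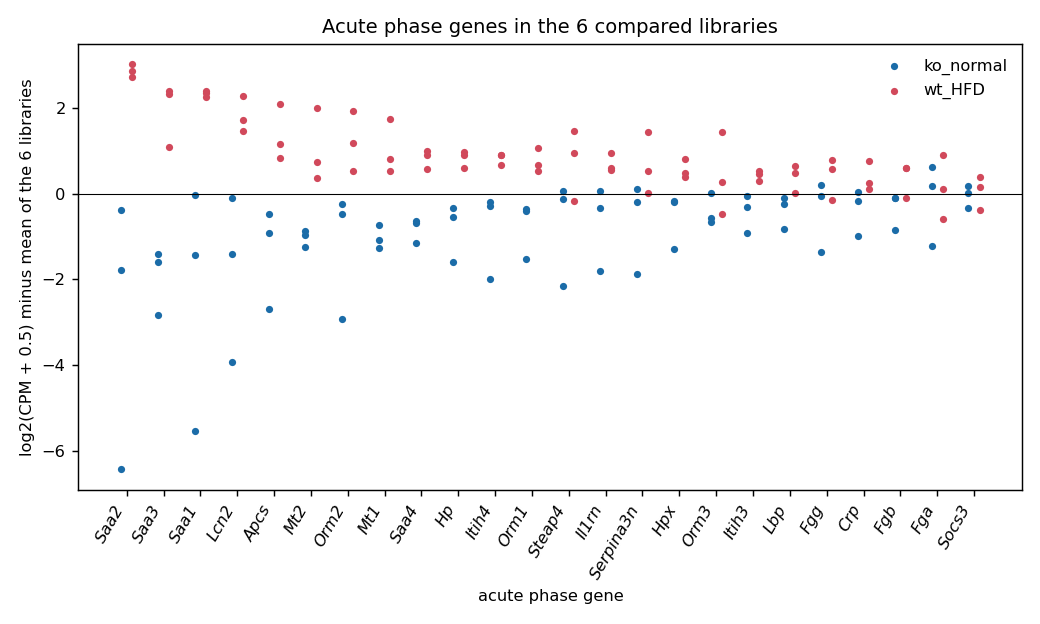
Levels of 24 acute phase genes in the 6 compared libraries, as log2(CPM + 0.5) minus the mean over the 6 libraries, with ko_normal in blue and wt_HFD in red. The wt_HFD points lie above all ko_normal points for 17 of 24 genes, and the lowest ko_normal point of Saa1 and Saa2 is that of replicate 1.

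Markers of neutrophils moved with the acute phase genes in sign. The 4 tested of 9 markers had a median of -2.30, and S100a9, S100a8 and Retnlg were lower in ko_normal without overlap in CPM. Over all genes 10.5% were lower without overlap. Counts were low: S100a8 had 3, 24 and 19 in ko_normal and 21, 72 and 108 in wt_HFD, which overlap before scaling. Retnlg had 0, 10 and 5 counts against 12, 23 and 31. The summed level of the list was 3.42 to 8.45 CPM in ko_normal and 10.5 to 23.2 CPM in wt_HFD, and it was 44.4 CPM in ko_HFD 1. The defining markers Ly6g and Mpo had 0 counts in all 3 ko_normal libraries, and Ly6g had 1 count and Mpo 0 counts over the 3 wt_HFD libraries. Their part in the acute phase difference was not tested. In these bulk libraries fewer cells of a type and less RNA per cell cannot be told apart.

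Of the other cell type lists, none held a called gene. Macrophage markers had a median of 0.15 and summed levels of 389 to 727 CPM in ko_normal and 517 to 701 CPM in wt_HFD, and the median was -0.23 without ko_normal 2 and 0.36 without wt_HFD 3. All 13 endothelial markers were negative, with a median of -0.33, and 1 had non-overlapping groups, beside 21.1% of all tested genes. That median was -0.55 without ko_normal 2 and -0.19 without ko_normal 3. Stellate cell markers had -0.57 and cholangiocyte markers -1.18, and without wt_HFD 2 these medians were 0.18 and 0.26. In that library Acta2, smooth muscle actin, was at 128 CPM against 1.53 to 3.53 CPM in the other 5 compared libraries, and the bile duct keratin Krt19 was at 44.5 CPM against 0.541 to 3.46 CPM.

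Among the lists with no called gene, mitochondrially encoded genes were positive in all 13 members with a median of 0.66, which was -0.09 without ko_normal 1. Interferon response genes had a median of 0.36 over 24 genes and circadian clock genes 0.22 over 20. The first was 0.14 without ko_normal 3 and 0.65 without ko_normal 1, and the second was 0.14 without ko_normal 1 and 0.67 without wt_HFD 1. An index of clock genes, in log2 units, was -5.49, -4.46 and -4.94 in ko_normal and -4.96, -4.54 and -1.8 in wt_HFD. Library wt_HFD 3 thus differed from the other 5 compared libraries. The index was -0.71, -2.5 and 0.19 in wt_normal and -5.68, -5.17 and -4.63 in ko_HFD, so wt_HFD 3 lay within the wt_normal range. With this index as a covariate 172 genes were called, of which 86 were among the 110. Genes of fatty acid oxidation had a median of -0.18, which was 0.09 without ko_normal 1 and -0.42 without ko_normal 3. Ppara, the receptor that drives them, had a difference of 0.42 (SE 0.225, adjusted p = 0.354). The plot of the gene lists shows the members of each process list.

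**Figure D4:**
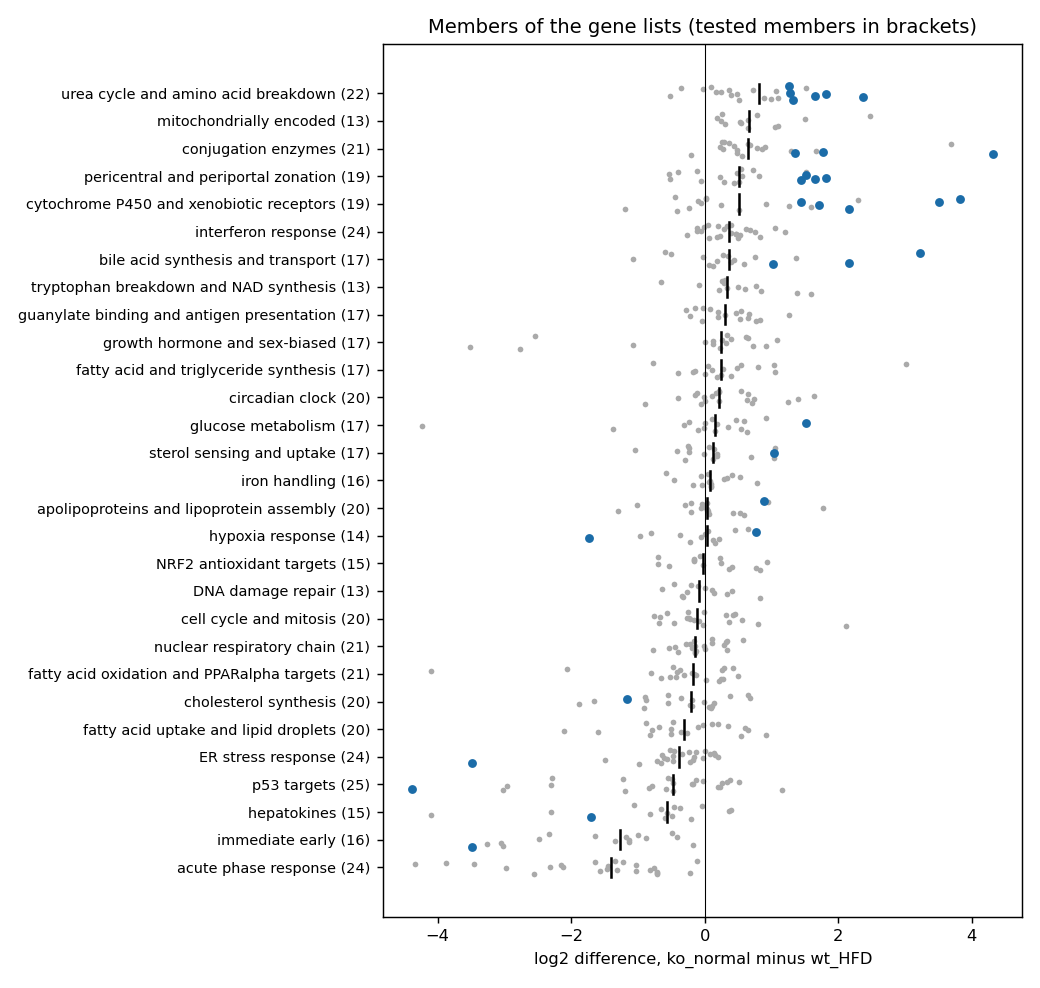
Log2 difference, ko_normal minus wt_HFD, of the tested members of each process list, with their number in brackets. Blue points are called genes, grey points are not called, and bars are list medians, from 0.81 for the urea cycle and amino acid breakdown to -1.40 for the acute phase response.

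The remaining 6 libraries share none with the comparison and give the opposite pairing of genotype and diet, ko_HFD minus wt_normal. That contrast was looked at after the values were seen and shares the estimate of spread. Of the 79 genes that rose, 38 were higher in ko_HFD than in wt_normal and 41 lower, and of the 31 that fell 12 were higher and 19 lower, beside 46.8% higher among all genes. Cyp3a11 was lower in ko_HFD than in wt_normal, with a log2 difference of -2.02 (edgeR adjusted p = 0.00675), as were Gsta2 at -1.89 (0.0452) and Trp53 at -4.39 (0.00549), while Mvd at 1.48 (0.014), Vcpkmt at 2.07 (0.0118) and Apol9b at 1.62 (0.00549) were higher. The sign thus followed genotype for Trp53, Vcpkmt and Apol9b, and diet for Cyp3a11, Gsta2 and Mvd.

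**Figure D5:**
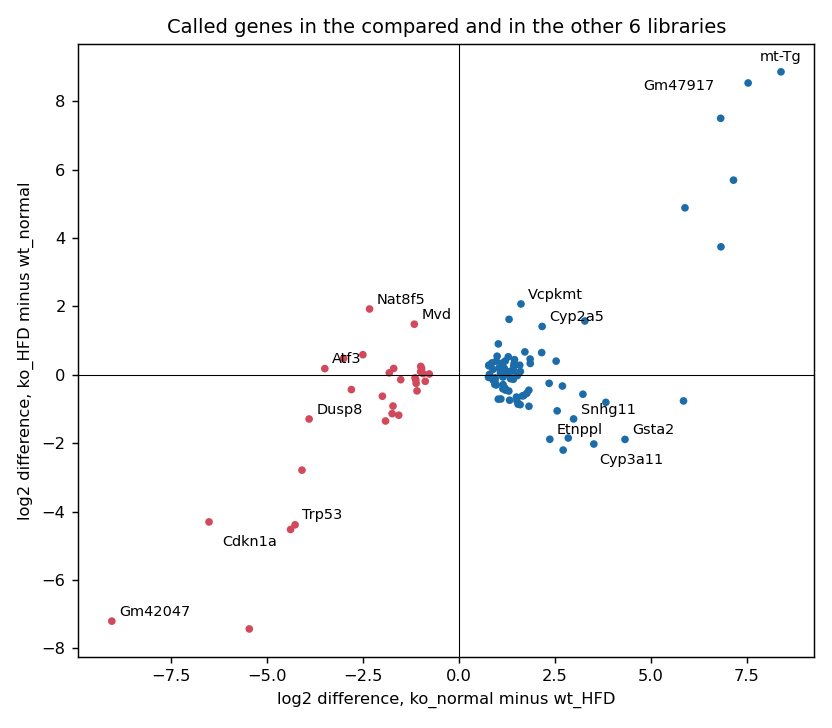
Log2 difference of the 110 called genes, ko_normal minus wt_HFD on the horizontal axis and ko_HFD minus wt_normal, in the other 6 libraries, on the vertical axis. Genes such as Trp53 and Vcpkmt keep their sign, with genotype, and genes such as Cyp3a11 and Mvd change it, with diet. Fitted values of genes with 0 counts in a group, such as mt-Tg, are no measured fold.

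The 2 compared groups each differ from wt_normal, in comparisons that share those 3 libraries. The clock index was -2.5 to 0.19 in wt_normal, above every ko_normal library and above wt_HFD 1 and 2. Its part in these differences was not tested. Cyp3a11 differed from wt_normal by -0.17 in ko_normal (SE 0.278, edgeR adjusted p = 0.814) and by -3.69 in wt_HFD (SE 0.31, adjusted p = 0.000221). Hal differed by -0.03 (SE 0.305) and -1.85 (SE 0.315, adjusted p = 0.0264). Cdkn1a differed by -5.22 (SE 0.923, adjusted p = 0.0471) in ko_normal and -0.84 (SE 0.744, adjusted p = 0.606) in wt_HFD. Ddah1 differed by 0.69 (SE 0.172, adjusted p = 0.0998) and -1.17 (SE 0.175, adjusted p = 0.0196), in opposite directions. Of the 79 genes that rose, the fitted log2 difference from wt_normal was larger in size for wt_HFD in 44 and for ko_normal in 35. Of the 31 that fell, it was larger for wt_HFD in 13 and for ko_normal in 18. These counts include genes with 0 counts in a group, whose fitted values depend on edgeR's prior count.

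Serpina12, Cenpm and Insig1 rose in both groups against wt_normal, and none of the 3 passed edgeR's main test between the groups. Serpina12, which encodes the adipokine vaspin, was at 108, 121 and 89.8 CPM in ko_normal, 213, 264 and 183 CPM in wt_HFD and 25.7, 14.5 and 13.2 CPM in wt_normal. It rose against wt_normal by 2.58 in ko_normal (SE 0.263, edgeR adjusted p = 0.00234) and by 3.63 in wt_HFD (SE 0.275, adjusted p = 0.000127), and the direct difference of -1.05 (SE 0.249, adjusted p = 0.0719) did not pass, although the groups did not overlap. Serpina12 was called between the groups with DESeq2 (adjusted p = 0.00366), with voom (0.023), with no filter on low counts (0.0171) and without wt_normal 1 (0.0388). Cenpm, a centromere protein, rose by 3.01 (adjusted p = 0.029) and 2.44 (0.0381), with a direct difference of 0.57 (adjusted p = 0.492). Insig1, the ER anchor of the sterol sensor, was at 111, 85.6 and 77.5 CPM in ko_normal and at 77.7, 70 and 94 CPM in wt_HFD. It rose by 1.03 (adjusted p = 0.0446) and 0.84 (0.0499), with a direct difference of 0.18 (95% interval -0.19 to 0.56). All 3 pairs of differences share the wt_normal libraries, with the clock index given above. Among abundant liver transcripts, the intervals were -0.51 to 0.52 for Apoe, -0.54 to 0.63 for Apoc1 and -0.50 to 0.40 for Cyp2e1, so a 2-fold difference lies outside all 3. Gapdh, often used as a reference gene, ranged from 26.4 to 142 CPM in ko_normal and from 15.8 to 86.6 CPM in wt_HFD (1.24, SE 0.804, edgeR adjusted p = 0.445), and its counts may include copies elsewhere in the genome.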

How the data were processed

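RNA sequencing of 12 liver libraries was used as deposited by the authors, as whole-number read counts per Ensembl gene in 1 table per library. CASAVA 1.8, Bowtie 0.12.2 and the builds mm8 and mm9 are named, per the submitters' processing notes, with no role. Of the authors' counting, the sources used here name no tool, annotation or strand setting. Positions are those of GENCODE M21 (GRCm38), looked up by identifier for 52489 of 52636 identifiers, and are not the authors' coordinates.

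The labels gave each library's group and number. Chi-square over degrees of freedom between replicates was 39.5 to 199, so no pair was alike within counting error. Genes were filtered with filterByExpr, scaled by TMM factors and tested with edgeR 4.0.16 (R 4.3.3), two-sided, in 1 fit of 4 groups to 12 libraries (8 residual and 4.66 prior degrees of freedom). Called genes had a Benjamini-Hochberg adjusted p under 0.05 over 14433 genes. SE is the size of the log2 difference fitted without edgeR's prior count, divided by the root of F. The printed log2 differences include the prior count. CPM are counts scaled by totals and TMM factors. A group with 0 counts was set to 3 counts in total, and ratios with 1 to 3 counts have exact 95% intervals.

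The comparison, 41 gene lists and the rule for named genes were chosen with earlier results of these data known. The rule takes Trp53, Cdkn1a, Sqle and Gapdh, the 10 largest rises and 10 largest falls among called genes whose groups do not overlap and whose higher group has at least 1 CPM, with predicted models left out and at most 2 per family. From each list come at most 4 called members, then the 3 members with the smallest p of each core list, narrow-interval abundant genes and genes called against wt_normal in both groups. Other genes in the text, which include every uncalled member of a list that is not a core list, were chosen after their values were seen, unless this rule takes them. Alternatives were other fits, filters and scalings, DESeq2 1.42.0, voom of limma 3.58.1, a clock index as covariate and each library left out in turn. The script was tested on simulated data with 200 changed genes.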

Additional observations from a re-analysis of the deposited data

How the results depend on the processing

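The 110 calls (79 higher, 31 lower in ko_normal) became 35 (20 and 15) in a fit of the 6 compared libraries, 383 (213 and 170) with no filter on low counts, 729 (395 and 334) with DESeq2, 423 (224 and 199) with voom and 172 (122 and 50) with the clock index as covariate. With 1 library left out they ranged from 23 to 119, with 18 to 76 higher and 5 to 43 lower. Trp53 ranged from -5.40 to -3.66 in those fits, called in each, and missed the threshold in the fit of the 6 compared libraries (-4.26, adjusted p = 0.0527). Other scalings and the stricter filter left the counts within 1.5 times. Over the named genes, 1067 values kept their sign and side of the threshold, 221 lost and 32 gained a call. Only uncalled differences near 0 changed sign, where the cause was not tested. Apoe (0.007) became -0.003 at a minimum of 1 CPM and ranged from -0.099 to 0.129 with 1 library left out, below 0 at -0.099 without ko_normal 2, -0.027 without ko_normal 3, -0.063 without wt_HFD 1 and 0 without ko_HFD 3. Cyp2e1 (-0.052) became 0.093 with voom, 0.005 with the clock index, 0.098 without ko_normal 1 and 0.005 without wt_HFD 2. Apoc1 (0.042) became -0.089 with voom and ranged up to 0.153 with 1 library left out, below 0 at -0.159 without ko_normal 1 and -0.021 without wt_HFD 3. The labels do not say whether replicate numbers pair the libraries. Deviations of same-numbered libraries from their group means correlated at 0.137, -0.06 and 0.006 across genes, and ko_normal 2 deviated most like wt_HFD 3 (0.235). Such correlations cannot show that the libraries were not paired. A replicate block gave 105 calls (75 higher, 30 lower), 86 of them shared, with Trp53 at -4.26. With it Mvd (adjusted p = 0.0604), Dusp8 (0.0567), Pdk1 (0.06) and Sowahb (0.0608) were not called, and Msmo1 and Gadd45a (0.0464 each) were. Genes under 1 CPM rest on few counts at these depths, and for genes whose interval reaches past 2-fold a missed threshold does not show a like level.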
